A study of Mus musculus with 6 samples.

Results

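Heat shock proteins, DnaJ proteins and chaperonins were described across bulk RNA sequencing of sorted mouse skin tumour cells. The members were the protein-coding genes whose symbols place them among the Hsp70 and Hsp110 genes (Hspa and Hsph1), the Hsp90 genes, the small heat shock proteins (Hspb), the mitochondrial chaperonin pair Hspd1 and Hspe1, the DnaJ A, B and C genes, and the CCT chaperonin (Tcp1 and Cct2 to Cct8). This gave 82 of the 55481 genes in the table, of which 68 reached 1 TPM in at least 2 libraries and were tested. The other 14 stayed at or under 2.11 TPM in each library, 3 of them (Cct8l1, Dnajc5b and Dnajc5g) being listed at 0 in all 4.

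The tumours were skin squamous cell carcinomas induced in mice with DMBA, a carcinogen, followed by the promoting agent TPA. The tested population had high Itga6, the integrin alpha 6 chain that marks basal epidermal cells, and carried CD80, a co-stimulatory ligand (Itga6hi CD80pos, 2 libraries); the series calls these cells stem-like. It was set against cells with low Itga6 and no CD80 (Itga6low CD80neg, 2 libraries), which the series calls differentiated. A further, Itga6hi CD80neg, population is not analysed here, so a difference below can go with Itga6, with CD80 or with both. The labels give no strain, age, genotype or gate beyond these 2 proteins, and leave it unsaid whether each replicate is another animal; the p-values then reflect just the spread of these 4 libraries, which may be technical.

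Chaperones bind unfolded stretches of other proteins and help them reach or keep their folded form. Hsp70 proteins do this in cycles of ATP use that are started by a DnaJ partner and reset by nucleotide exchange factors such as Hsp110, and Hsp90 acts later on kinases and receptors. The ring-shaped CCT complex folds actin and tubulin in the cytosol, and the Hspd1 and Hspe1 ring folds imported proteins in the mitochondrion. The endoplasmic reticulum (ER) has its own set, led by Hspa5 (BiP) and Hsp90b1 (GRP94), which is raised by the unfolded protein response, whereas the cytosolic set is raised by heat shock factor 1.

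The values were deposited TPM, transcript levels per length scaled to a fixed total, which keep no record of depth, so the depth is unknown. Haemoglobin genes took 0.0185% and 0.00621% of the Itga6hi CD80pos totals, against 70.9% and 50.4% of the Itga6low CD80neg totals. Since every library has the same total, all other genes are pushed down in the Itga6low CD80neg libraries, and over all 13474 genes tested the median log2 fold change was 1.27. Fold changes are log2(TPM + 1) in Itga6hi CD80pos minus Itga6low CD80neg; beside them stand values after median-of-ratios scaling, where that median was 0.24. Summed keratinocyte markers were 48721 and 49296 TPM in Itga6hi CD80pos, against 2130 and 6352 TPM in Itga6low CD80neg. The differentiation keratins of that list were also higher in both Itga6hi CD80pos libraries. Krt10 had 3019 and 1837 TPM there, against 209 and 526 TPM in Itga6low CD80neg (median-of-ratios 1.55). Krt1 had 1118.5 and 2052 TPM in Itga6hi CD80pos, against 228 and 828 TPM in Itga6low CD80neg (median-of-ratios 0.52). Neither was called after that scaling. Summed fibroblast markers were 90.04 and 66.6 TPM in Itga6hi CD80pos, against 9557 and 5831 TPM in Itga6low CD80neg. Most of the first pair was Fbln1, which was not called. It had 80.2 and 54.5 TPM in Itga6hi CD80pos, against 82.3 and 37.5 TPM in Itga6low CD80neg. Of 7 myeloid markers, Lyz2 and Ptprc were called lower. Both reached 1 TPM in Itga6low CD80neg alone, so the filter for testing favoured that direction. Csf1r, Adgre1 and Itgam were lower in both Itga6hi CD80pos libraries and too low to test, and S100a8 and Cd68 did not pass. The 7 markers summed to 466 and 335 TPM in Itga6hi CD80pos, against 228 and 1003 TPM in Itga6low CD80neg, nearly all of it S100a8. Lymphocyte markers were under 5 TPM in sum in each library. Markers of red blood cells and fibroblasts were thus measured at high levels in libraries labelled as carcinoma cells, and fewer cells of a type and less RNA per cell cannot be told apart in bulk libraries. The part of the cell mixture in the results below was not tested.

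The members together took 1.197% and 1.12% of TPM in Itga6hi CD80pos, against 0.202% and 0.336% in Itga6low CD80neg. Of the TPM outside haemoglobin genes they took 1.197% and 1.12% in Itga6hi CD80pos, against 0.696% and 0.678% in Itga6low CD80neg. On deposited TPM, limma called 41 members higher and 2 lower at an adjusted p under 0.05, and 25 did not pass. Over all genes tested the same test called 57.0% higher and 9.48% lower, so the count of members higher is near the background. The members' median log2 fold change was 1.43, and 40 of the 68 lay above the all-gene median. After median-of-ratios scaling 8 members were called higher and 4 lower, where 10.2% of all genes were higher and 11.9% lower. Under each of 5 scalings alike (deposited TPM, median-of-ratios, quantile, a total without haemoglobin genes, and one without mitochondrial, ribosomal protein, haemoglobin and keratin genes), 7 members were called higher (Cct7, Tcp1, Dnajc11, Hspd1, Hspa9, Hsp90ab1 and Hspb1) and 2 lower (Hspa12b and Hspb2), where 6.46% of all genes were called higher and 8.30% lower throughout. The libraries did not overlap between groups in 57 members that were higher and 2 that were lower, where 73.5% of all genes were higher and 12.9% lower without overlap. Among members that passed the filter, Hspb9 and Dnajc27 did so through Itga6hi CD80pos alone, and Hspb2 and Hspa12b through Itga6low CD80neg alone. The filter thus favoured the direction of each of these genes.

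Leaving out a library of the Itga6hi CD80pos pair removed the calls but not the size of the fold changes. Without Itga6hi CD80pos replicate 1 limma called 0 members higher and 0 lower, against 25 and 2 by the p before adjustment (under 0.05). Without Itga6hi CD80pos replicate 2 it also called 0 and 0, against 28 and 2 before adjustment. Leaving out Itga6low CD80neg replicate 1 gave 43 higher and 2 lower, and leaving out its replicate 2 gave 48 and 2. Over all genes tested, calls were likewise few or absent without an Itga6hi CD80pos library. Leaving out an Itga6low CD80neg library leaves the same number of libraries. There the calls over all genes stayed near those with 4 libraries, and those of higher genes rose without its replicate 2. All 43 members called with 4 libraries kept their direction in each of these fits, and leaving out either Itga6hi CD80pos library moved their log2 fold changes by at most 0.28. Leaving out either Itga6low CD80neg library moved them by at most 0.71. The loss of calls without an Itga6hi CD80pos library applies to each member call that follows.

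The values are given next by the compartment in which the proteins work. All 8 mitochondrial members were called higher, with a median log2 fold change of 2.49, from 1.48 to 3.38, where 57.0% of all genes were called higher. In the cytosol 24 of 37 tested members were higher and 2 lower, with a median of 1.64. In the ER 3 of 13 were higher and 0 lower, with a median of 0.36, which lies under the all-gene median; 10 of these 13 members lay under it. The count of ER members higher rose with either Itga6low CD80neg library left out. Calls of higher genes over all genes rose without its replicate 2 but not without its replicate 1. The ER count was lost without either Itga6hi CD80pos library, as were the other counts of members called. After median-of-ratios scaling 10.2% of all genes were called higher and 11.9% lower. With that scaling 3 mitochondrial members were called higher and 0 lower, 5 cytosolic members higher and 3 lower, and 0 ER members higher and 1 lower. The medians were then 1.33 in the mitochondrion, 0.41 in the cytosol and -0.82 in the ER, so the ER median changes sign with the scaling. Mitochondrial members summed to 1056 and 873 TPM in Itga6hi CD80pos, against 100.1 and 198 TPM in Itga6low CD80neg. ER members summed to 497 and 646 TPM in Itga6hi CD80pos, against 409 and 481 TPM in Itga6low CD80neg. The mitochondrial sums do not overlap between groups by a wide margin, whereas the lower Itga6hi CD80pos sum of the ER members is just above the higher Itga6low CD80neg one. As a share of TPM outside haemoglobin genes, the ER members held 0.0497% and 0.0646% in Itga6hi CD80pos, against 0.141% and 0.0969% in Itga6low CD80neg.

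**Figure D1:**
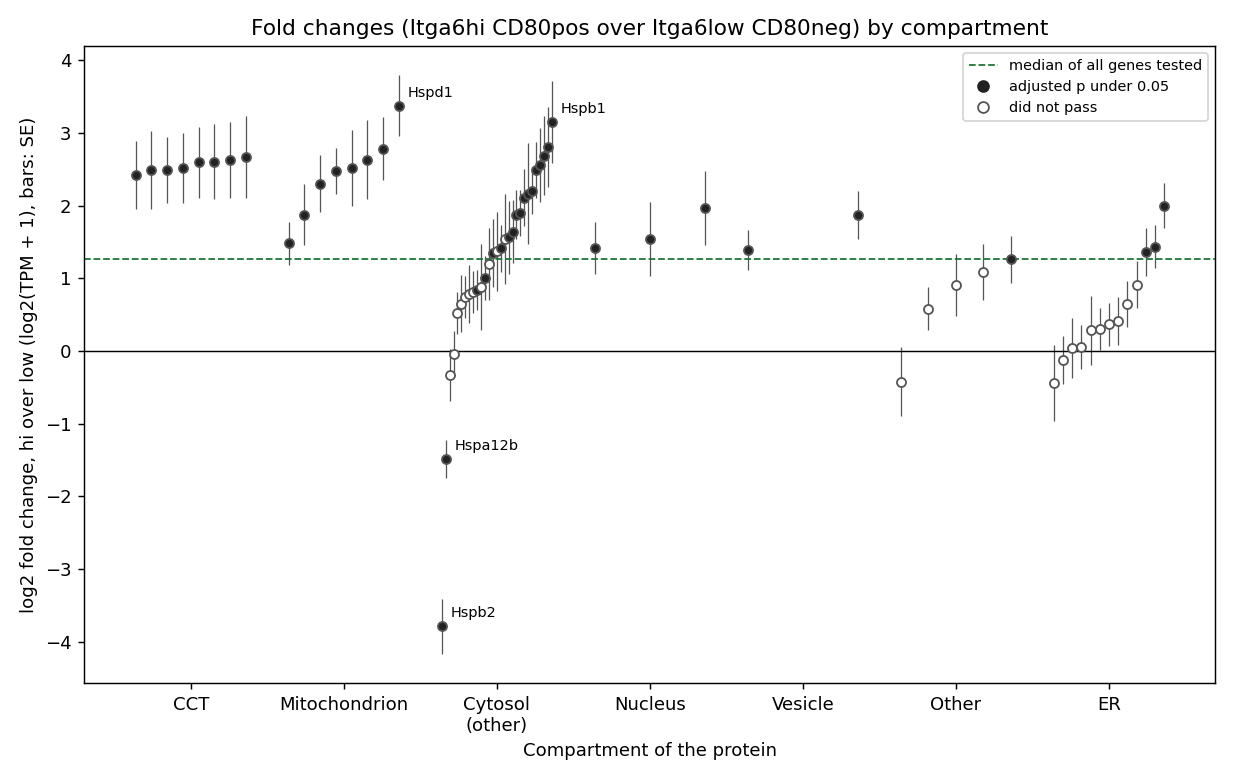
Log2 fold change of each tested member (Itga6hi CD80pos over Itga6low CD80neg, log2(TPM + 1), bars are SE) by the compartment of its protein; filled points passed limma's adjusted p under 0.05 and the dashed line is the median of all genes tested, 1.27. All 8 mitochondrial members lie above the line and 10 of 13 ER members lie under it.

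The CCT complex is built of 8 different subunits, and all 8 were called higher, with log2 fold changes from 2.42 to 2.67. Of all genes tested 57.0% were called higher, with a median of 1.27. After median-of-ratios scaling the 8 subunits ran from 1.16 to 1.40. Cct7 and Tcp1 passed that test, where 10.2% of all genes were called higher. Tcp1, the subunit that gave the complex its older name, had 341 and 274 TPM in Itga6hi CD80pos, against 35.3 and 69.7 TPM in Itga6low CD80neg (log2 fold change 2.60 ± 0.49 SE, adjusted p = 0.00957). Cct7 had 285 and 234 TPM in Itga6hi CD80pos, against 33.9 and 60.2 TPM in Itga6low CD80neg (2.49 ± 0.45, adjusted p = 0.00887). In both, each Itga6hi CD80pos library stood well above each Itga6low CD80neg library, and Itga6low CD80neg replicate 1 was lowest. Cct2 had 344 and 339.8 TPM in Itga6hi CD80pos, against 37.2 and 82.3 TPM in Itga6low CD80neg. Cct3 had 310.1 and 244 TPM in Itga6hi CD80pos, against 31.2 and 74.3 TPM in Itga6low CD80neg. Cct5 had 389.7 and 325 TPM in Itga6hi CD80pos, against 38.5 and 83.7 TPM in Itga6low CD80neg. These 3 subunits had the same order of libraries, and none overlapped between groups. Of all genes tested 73.5% were higher without overlap. Cct8 had 311 and 259 TPM in Itga6hi CD80pos, against 38.3 and 71.4 TPM in Itga6low CD80neg. Cct4 had 198 and 188 TPM in Itga6hi CD80pos, against 22.1 and 48.6 TPM in Itga6low CD80neg, and was the lowest subunit in each of the 4 libraries. Cct6a had 457 and 405 TPM in Itga6hi CD80pos, against 42.6 and 105 TPM in Itga6low CD80neg, and was the highest in each. The ratio of the highest to the lowest subunit was 2.31 and 2.15 in Itga6hi CD80pos and 1.93 and 2.15 in Itga6low CD80neg, so the spread over the subunits was of similar size in the groups while their level differed. The coefficient of variation over the 8 subunits was 23.0% and 24.4% in Itga6hi CD80pos and 17.7% and 22.5% in Itga6low CD80neg. Cct6b and Cct8l1, the other CCT genes among the members, were too low to be tested.

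**Figure D2:**
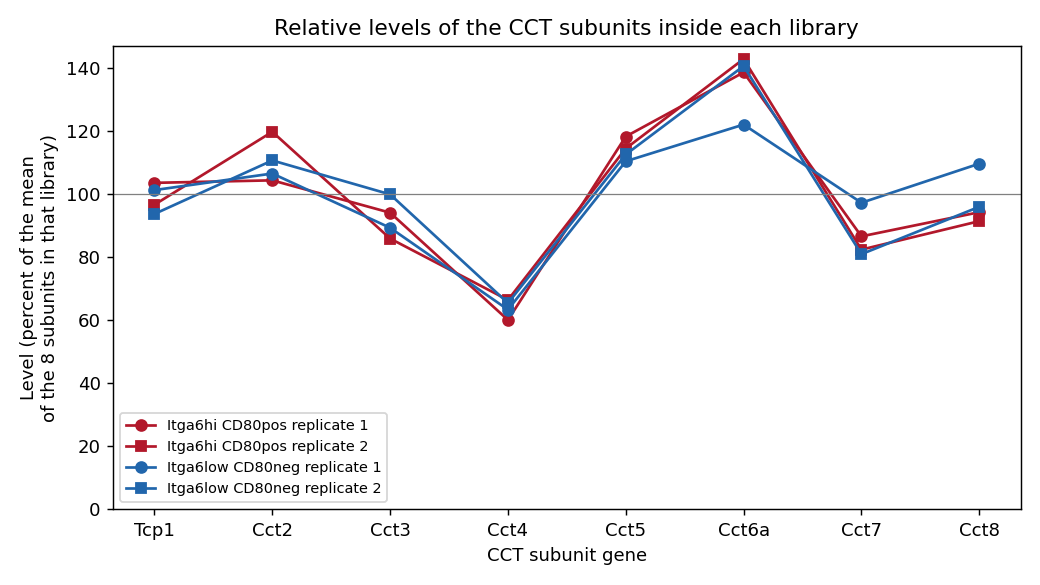
Level of each CCT subunit as a percent of the mean of the 8 subunits in the same library, a scale on which the height of a library drops out; lines join the subunits of 1 library. The 4 lines run close together, with Cct4 lowest and Cct6a highest in each library.

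Hspd1 (Hsp60) and Hspe1 (Hsp10) form the ring and the lid of the mitochondrial chaperonin. Hspd1 had 262 and 211 TPM in Itga6hi CD80pos, against 16.6 and 28.4 TPM in Itga6low CD80neg, the highest fold change among the members (3.38 ± 0.42 SE, adjusted p = 0.00525; median-of-ratios 2.13, adjusted p = 0.0131). Hspe1 had 379 and 309 TPM in Itga6hi CD80pos, against 35.2 and 83.5 TPM in Itga6low CD80neg (2.63 ± 0.54, adjusted p = 0.0118; median-of-ratios 1.37, adjusted p = 0.0622). The groups did not overlap in either gene, where 73.5% of all genes tested were higher without overlap. Hspa9, the mitochondrial Hsp70 that pulls in imported proteins, had 237 and 198 TPM in Itga6hi CD80pos, against 22.9 and 40.8 TPM in Itga6low CD80neg (2.78 ± 0.44, adjusted p = 0.00691; median-of-ratios 1.53, adjusted p = 0.0261). Hspd1 and Hspa9 kept their call under each of 5 scalings, and Hspe1 did not.

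Hspd1 and Hspe1 lie head to head on mouse chromosome 1, and their annotated starts overlap. A site near both starts is shown because it holds the heat shock element in both orders, TTCNNGAA and GAANNTTC, in overlap. The site lies at chr1:55088053-55088082 on the plus strand of GRCm38.p6 (RefSeq), before the start of Hspe1, inside the span of Hspd1 and in an exon annotated in GENCODE M21, and the capitals mark the joined matches.
Hspe1: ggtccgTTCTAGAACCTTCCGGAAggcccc
Promoter windows of 300 bases, most of them before each start, were found for 67 members; a gene with several starts counts once if any of its windows holds a match. Both forms read the same on either strand, and 20 of the 67 members (29.9%) held at least 1 of them, against 17.0% of all 27025 genes with a window. By compartment these were 15 of 39 cytosolic, 2 of 5 mitochondrial and 1 of 12 ER members. The 2 mitochondrial ones were Hspd1 and Hspe1 themselves, so their matches may share a site. Members too low to test, such as Cct8l1 and Hspb3, were counted too. A match is a run of letters in a window and was not read as a bound site.

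The mitochondrial DnaJ members were all called higher, where 57.0% of all genes were. Dnaja3, the DnaJ partner of Hspa9, had 32.2 and 28.2 TPM in Itga6hi CD80pos, against 3.69 and 7.54 TPM in Itga6low CD80neg (2.30 ± 0.39 SE, adjusted p = 0.0079). Dnajc11, a DnaJ protein of the mitochondrial membranes, had 45.1 and 36.1 TPM in Itga6hi CD80pos, against 5.60 and 7.39 TPM in Itga6low CD80neg (2.47 ± 0.32, adjusted p = 0.00548; median-of-ratios 1.29, adjusted p = 0.0281). Dnajc15, which sits at the import channel, had 31.3 and 30.3 TPM in Itga6hi CD80pos, against 2.40 and 8.13 TPM in Itga6low CD80neg (2.51 ± 0.52, adjusted p = 0.0119). Dnajc19, its relative at the same channel, had 59.1 and 49.6 TPM in Itga6hi CD80pos, against 9.85 and 19.8 TPM in Itga6low CD80neg. The groups did not overlap in any of these 4 genes, where 73.5% of all genes tested were higher without overlap. Dnajc11 alone passed after median-of-ratios scaling. In a list of 21 other mitochondrial folding, import and protease genes, 18 were called higher and 0 lower, with a median log2 fold change of 2.09. After median-of-ratios scaling 6 were higher and 1 lower. Of all genes, 57.0% were called higher on deposited TPM and 10.2% after that scaling. Tomm40, the channel of the outer membrane, had 191.6 and 165 TPM in Itga6hi CD80pos, against 10.7 and 24.3 TPM in Itga6low CD80neg (3.38 ± 0.48, adjusted p = 0.00603). Tomm20, an import receptor (3.03 ± 0.45), and Timm50, of the inner membrane translocase (2.68 ± 0.48), followed it. Timm50 was not called after median-of-ratios scaling (1.47).

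Of the cytosolic Hsp90 pair, Hsp90ab1 is the form made at all times and Hsp90aa1 the more stress-inducible one. Hsp90ab1 had 1725 and 1512 TPM in Itga6hi CD80pos, against 205 and 260.0 TPM in Itga6low CD80neg (2.80 ± 0.55 SE, adjusted p = 0.0106; median-of-ratios 1.53, adjusted p = 0.0459). Hsp90aa1 had 292 and 238 TPM in Itga6hi CD80pos, against 80.1 and 133 TPM in Itga6low CD80neg (1.34 ± 0.47, adjusted p = 0.0483). Its value was 0.077 after median-of-ratios scaling (adjusted p = 0.863) and -0.044 on a total without haemoglobin genes, so its direction changes with the scaling. The levels of both genes were higher in each Itga6hi CD80pos library than in either Itga6low CD80neg library, as in 73.5% of all genes.

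Among cytosolic Hsp70 genes, Hspa8 is the constant form and Hspa1a and Hspa1b are the heat-inducible pair. Hspa8 had 1914 and 2455 TPM in Itga6hi CD80pos, against 343 and 679 TPM in Itga6low CD80neg (2.16 ± 0.69 SE, adjusted p = 0.0384; median-of-ratios 0.89, adjusted p = 0.239). Hspa1b had 378 and 424 TPM in Itga6hi CD80pos, against 39.7 and 94.3 TPM in Itga6low CD80neg (2.69 ± 0.55, adjusted p = 0.0114; median-of-ratios 1.42, adjusted p = 0.0593). Hspa1a had 96.3 and 181 TPM in Itga6hi CD80pos, against 35.4 and 71.7 TPM in Itga6low CD80neg (1.37 ± 0.54, adjusted p = 0.0691). The coding sequences of Hspa1a and Hspa1b are nearly identical, so the split of reads between them is uncertain and their sum is safer. The sum was 474 and 605 TPM in Itga6hi CD80pos, against 75.1 and 166.0 TPM in Itga6low CD80neg. Hspa14, a ribosome-bound Hsp70, had 41.4 and 36.8 TPM in Itga6hi CD80pos, against 8.08 and 12.1 TPM in Itga6low CD80neg (1.88 ± 0.34, adjusted p = 0.00875). After median-of-ratios scaling the Hspa14 value was 0.67 and was not called. Hspa2, known for its role in sperm, had 8.12 and 6.73 TPM in Itga6hi CD80pos, against 4.15 and 3.47 TPM in Itga6low CD80neg, and did not pass (0.81 ± 0.29, adjusted p = 0.0531). Hspa12b, a distant Hsp70 known from endothelium, went the other way at a low level. It had 0.298 and 0.265 TPM in Itga6hi CD80pos, against 2.85 and 2.37 TPM in Itga6low CD80neg (-1.49 ± 0.26, adjusted p = 0.00826), and was called lower under each of 5 scalings. Hspa12b passed the filter through Itga6low CD80neg alone, which favours that direction. It was not called with no filter on low values, and its mean was under 5 TPM. The endothelial markers did not move as one with it. Of 6, 2 were tested: Eng was called lower, with 1.51 and 2.12 TPM in Itga6hi CD80pos, against 19.3 and 6.69 TPM in Itga6low CD80neg. Pecam1 did not pass, with 2.34 and 5.84 TPM in Itga6hi CD80pos, against 0.253 and 2.03 TPM in Itga6low CD80neg. The other 4 (Cdh5, Tie1, Emcn and Kdr) stayed under 1.5 TPM and were higher in both Itga6hi CD80pos libraries than in either Itga6low CD80neg library, with Emcn listed at 0 in Itga6low CD80neg replicate 1. The summed level of the 6 was 6.60 and 12.8 TPM in Itga6hi CD80pos, against 19.9 and 9.30 TPM in Itga6low CD80neg, most of the second pair being Eng. The part of endothelial RNA in the Hspa12b value was not tested.

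The promoter of Hspa1b is shown as the textbook heat-inducible one. It is the stretch before the start at chr17:34959239-34959438 on the minus strand of GRCm38.p6 (RefSeq), with the GAANNTTC match in capitals.
Hspa1b: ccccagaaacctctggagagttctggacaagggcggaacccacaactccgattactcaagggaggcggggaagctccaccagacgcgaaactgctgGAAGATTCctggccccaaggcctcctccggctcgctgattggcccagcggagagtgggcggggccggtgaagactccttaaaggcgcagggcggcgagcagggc
GAANNTTC was found in 16 of the 67 members (23.9%) and in 9.04% of all genes with a window. TTCNNGAA was found in 8 members (11.9%) and in 9.60% of all genes.

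The Hsp110 genes, exchange factors of Hsp70, were all called higher, where 57.0% of all genes were. Hspa4 had 163 and 152 TPM in Itga6hi CD80pos, against 16.6 and 40.1 TPM in Itga6low CD80neg (2.56 ± 0.51 SE, adjusted p = 0.0107). Hspa4l had 26.0 and 17.6 TPM in Itga6hi CD80pos, against 4.06 and 3.69 TPM in Itga6low CD80neg (2.20 ± 0.32, adjusted p = 0.00638). Hsph1 had 31.9 and 24.8 TPM in Itga6hi CD80pos, against 7.43 and 6.28 TPM in Itga6low CD80neg (1.90 ± 0.31, adjusted p = 0.00739). None of the 3 overlapped between groups, where 73.5% of all genes tested were higher without overlap. After median-of-ratios scaling, where 10.2% of all genes were called higher, 0 of them passed and the values ran from 0.71 to 1.31.

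Small heat shock proteins hold unfolded proteins without using ATP, and these genes split. Hspb1 (Hsp27 in human), abundant in epidermis, had 1967 and 1329 TPM in Itga6hi CD80pos, against 156 and 211 TPM in Itga6low CD80neg (3.15 ± 0.57 SE, adjusted p = 0.00865; median-of-ratios 1.88, adjusted p = 0.0324). Its promoter is shown because it holds the GAANNTTC form at 2 places, in capitals, at chr5:135887719-135887918 on the plus strand of GRCm38.p6 (RefSeq).
Hspb1: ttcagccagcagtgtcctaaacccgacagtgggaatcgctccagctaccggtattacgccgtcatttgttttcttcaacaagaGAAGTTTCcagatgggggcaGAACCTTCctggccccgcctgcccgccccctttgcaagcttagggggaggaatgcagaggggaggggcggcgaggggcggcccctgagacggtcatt
Hspb2, known from heart and skeletal muscle, had 0.0655 and 0.103 TPM in Itga6hi CD80pos, against 9.99 and 19.5 TPM in Itga6low CD80neg (-3.79 ± 0.38, adjusted p = 0.00398; median-of-ratios -4.39, adjusted p = 0.00393). It too passed the filter through Itga6low CD80neg alone, which favours that direction. Cryab, a small heat shock protein of muscle and lens outside the members' rule, had 1.18 and 1.96 TPM in Itga6hi CD80pos, against 27.6 and 27.3 TPM in Itga6low CD80neg (-3.49 ± 0.31, adjusted p = 0.00337). Of the skeletal and smooth muscle markers 8 of 8 tested were called lower, where 9.48% of all genes were. All of these but Acta2 and Tagln passed the filter through Itga6low CD80neg alone, which favours that direction. The muscle markers summed to 31.9 and 32.3 TPM in Itga6hi CD80pos, against 400.0 and 521 TPM in Itga6low CD80neg, most of it Acta2 and Tagln. Between the Itga6low CD80neg libraries, Hspb2, Acta2, Tagln and Cnn1 were higher in replicate 2. The other muscle markers, among them Acta1, Ckm and Tnnt3, were lower there. Of the 9 muscle markers, 2 and 1 were listed at 0 in the Itga6hi CD80pos libraries. The part of muscle RNA in the Hspb2 and Cryab values was not tested. Hspb8, partner of Bag3 in the clearance of damaged muscle proteins, had 84.9 and 26.9 TPM in Itga6hi CD80pos, against 27.8 and 23.7 TPM in Itga6low CD80neg (0.88 ± 0.59, adjusted p = 0.23). Only its Itga6hi CD80pos replicate 1 stood apart, and the groups overlapped. Hspb6 had 4.57 and 4.27 TPM in Itga6hi CD80pos, against 3.74 and 1.51 TPM in Itga6low CD80neg, and did not pass (adjusted p = 0.183). Hspb11 had 18.7 TPM in both Itga6hi CD80pos libraries, against 5.87 and 11.5 TPM in Itga6low CD80neg (1.09 ± 0.39, adjusted p = 0.0515). Hspb9 had 1.57 and 1.29 TPM in Itga6hi CD80pos, against 0.230 and 0.500 TPM in Itga6low CD80neg (0.84 ± 0.27, adjusted p = 0.0392), a level at the edge of the filter. After median-of-ratios scaling the Hspb9 value was 0.31 and was not called. In the group as a whole 2 of 6 tested members were higher and 1 lower, where 57.0% of all genes were higher and 9.48% lower. The group's median was 0.86 on deposited TPM and -0.21 after median-of-ratios scaling.

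**Figure D3:**
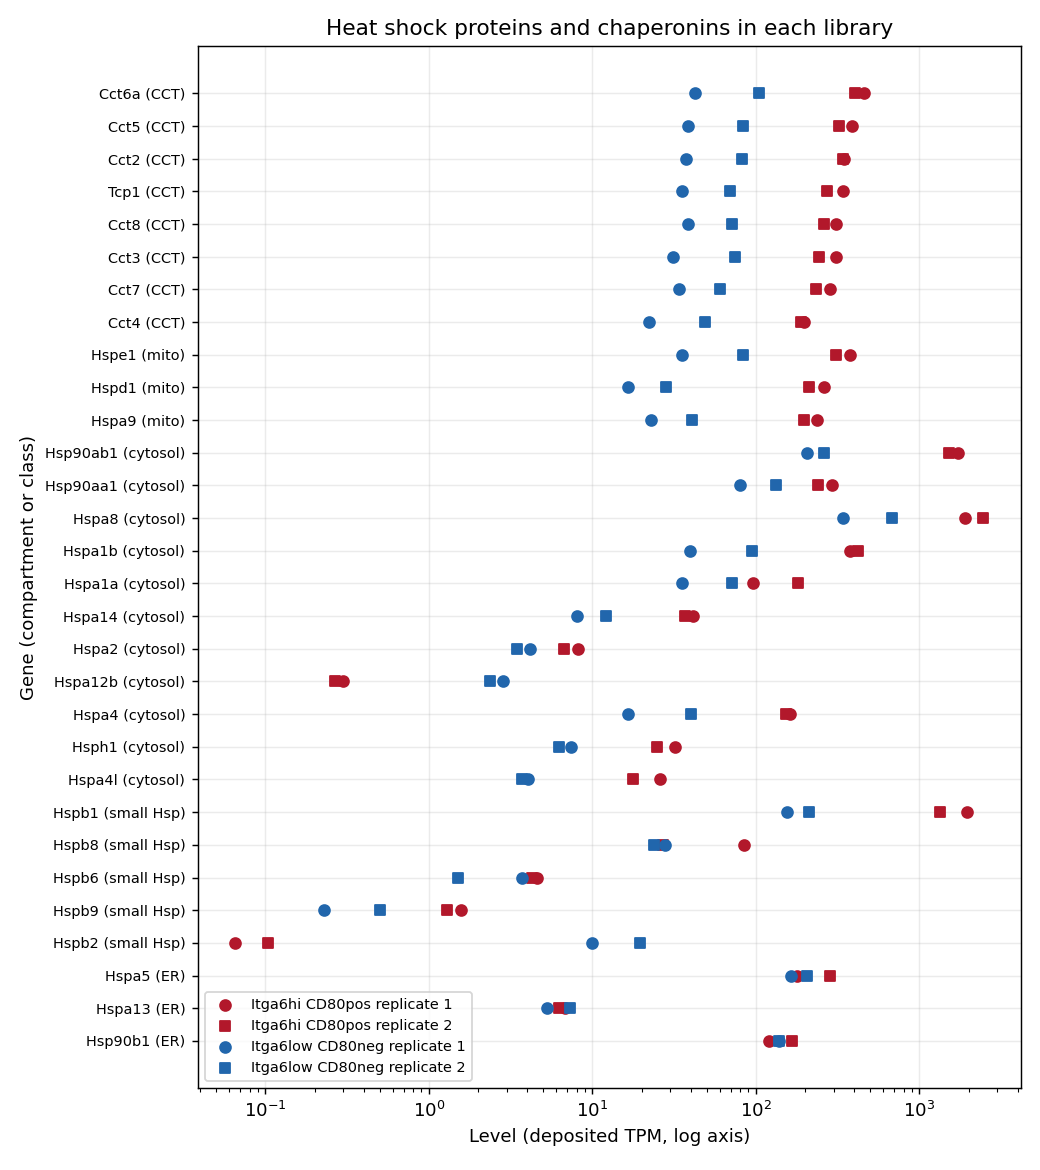
Level in each of the 4 libraries (deposited TPM, log axis) of the heat shock and chaperonin genes; colour gives the population and shape the replicate. Hspb1 and Hspd1 stand well to the right in Itga6hi CD80pos, Hspb2 and Hspa12b to the left, and the points of Hspa5 and Hsp90b1 lie close together.

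The ER Hsp70 and Hsp90 genes had TPM that overlapped between the populations. Hspa5 (BiP), the ER Hsp70, had 178 and 283 TPM in Itga6hi CD80pos, against 165 and 205 TPM in Itga6low CD80neg (0.28 ± 0.47 SE, adjusted p = 0.615; median-of-ratios -0.99, adjusted p = 0.114), and the groups overlapped. Hsp90b1 (GRP94) had 121 and 166 TPM in Itga6hi CD80pos, against 138 TPM in both Itga6low CD80neg libraries (0.039 ± 0.41, adjusted p = 0.938; median-of-ratios -1.23, adjusted p = 0.058). Hspa13, the other ER Hsp70, had 6.83 and 6.21 TPM in Itga6hi CD80pos, against 5.27 and 7.29 TPM in Itga6low CD80neg (0.059 ± 0.30, adjusted p = 0.873). All 3 had values below 0 after median-of-ratios scaling, and 0 of them passed there. The ER DnaJ genes varied more. Dnajb11, a DnaJ partner of Hspa5, had 59.2 and 59.1 TPM in Itga6hi CD80pos, against 29.2 and 32.8 TPM in Itga6low CD80neg (0.91 ± 0.32, adjusted p = 0.0508). Dnajb9, induced by ER stress, had 18.0 and 12.9 TPM in Itga6hi CD80pos, against 12.9 and 34.0 TPM in Itga6low CD80neg (-0.44 ± 0.52, adjusted p = 0.479); it was called lower on a total without haemoglobin genes (adjusted p = 0.0322). Itga6low CD80neg replicate 2 alone was high for Dnajb9, and the groups overlapped. Dnajb12, anchored in the ER membrane, had 23.5 and 22.2 TPM in Itga6hi CD80pos, against 5.90 and 4.16 TPM in Itga6low CD80neg (2.00 ± 0.31, adjusted p = 0.00684; median-of-ratios 0.84, adjusted p = 0.149). Dnajc10, an ER disulfide reductase, had 15.4 and 15.5 TPM in Itga6hi CD80pos, against 11.5 and 13.2 TPM in Itga6low CD80neg, and did not pass (adjusted p = 0.383). Dnajc25 had 5.59 and 5.87 TPM in Itga6hi CD80pos, against 4.92 and 8.07 TPM in Itga6low CD80neg (-0.12 ± 0.33, adjusted p = 0.758), and was called lower after median-of-ratios scaling (adjusted p = 0.0438). Dnajc14 and Dnajc16 were the other ER members called higher.

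The promoters of Hspa5 and Hsp90b1 are shown because they hold the ER stress element (CCAAT, then 9 bases of any kind, then CCACG), in capitals, which was searched on both strands. The stretch of Hspa5 lies at chr2:34772020-34772049 on the plus strand and that of Hsp90b1 at chr10:86705510-86705644 on the minus strand of GRCm38.p6 (RefSeq); the Hspa5 match lies before RefSeq's start but inside an exon annotated in GENCODE M21, and in Hsp90b1 the match is on the other strand, so the capitals read as its reverse complement.
Hspa5: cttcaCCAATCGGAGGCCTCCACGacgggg
Hsp90b1: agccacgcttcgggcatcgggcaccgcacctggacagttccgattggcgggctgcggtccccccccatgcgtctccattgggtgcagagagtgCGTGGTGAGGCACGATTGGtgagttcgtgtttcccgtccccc
The joined element was found in 3 of the 67 members (4.48%) and in 37 of all 27025 genes (0.137%); the 3 members were Hspa5, Hsp90b1 and Dnajc3, all ER members. The joined form was chosen after its single boxes had been counted: CCAAT was found in 44.8% of the members and 41.1% of all genes, and CCACG in 58.2% of the members and 35.5% of all genes.

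In a list of 36 other ER folding and unfolded protein response genes, 13 of 34 tested were called higher and 1 lower. Of all genes, 57.0% were called higher and 9.48% lower. The list's median was 0.91, under the all-gene median. After median-of-ratios scaling 0 were higher and 4 lower (Pdia5, Ddit3, Xbp1 and Fkbp11), where 11.9% of all genes were lower. Pdia5, a disulfide isomerase, was the gene called lower on deposited TPM. It had 2.01 and 2.69 TPM in Itga6hi CD80pos, against 8.28 and 13.5 TPM in Itga6low CD80neg (-1.80 ± 0.35 SE, adjusted p = 0.0102). Atf6b, a sensor of the unfolded protein response, was highest in fold change among those called (2.04), followed by Hyou1, the ER relative of Hsp110 (1.88). Serpinh1, the collagen chaperone of the ER, had 91.1 and 110.3 TPM in Itga6hi CD80pos, against 438 and 420.0 TPM in Itga6low CD80neg (-2.09 ± 0.43, adjusted p = 0.0115). Fibroblast markers moved with it, 9 of 10 being called lower, where 9.48% of all genes were. Among these Lum, Pdgfra and Pdgfrb reached 1 TPM in Itga6low CD80neg alone, so the filter favoured that direction. The part of fibroblast RNA in the Serpinh1 value was not tested.

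DnaJ proteins bring substrates to Hsp70 and start its ATP cycle. Of 37 tested members of the A, B and C classes, 20 were called higher and 0 lower, with a median of 1.36. Of all genes, 57.0% were called higher and 9.48% lower. After median-of-ratios scaling 2 members were higher and 2 lower, with a median of 0.23. With that scaling 10.2% of all genes were higher and 11.9% lower. On deposited TPM the C class had 16 of 23 higher, the B class 2 of 10 and the A class 2 of 4. The B count rose with either Itga6low CD80neg library left out. The A count rose with replicate 2 of Itga6low CD80neg left out, where calls of higher genes over all genes rose too. The abundant cytosolic DnaJ members were not alike. Dnaja1 had 114 and 145 TPM in Itga6hi CD80pos, against 64.5 and 86.3 TPM in Itga6low CD80neg (0.78 ± 0.40 SE, adjusted p = 0.131). Dnaja2, a close relative, had 122 and 121 TPM in Itga6hi CD80pos, against 21.1 and 35.3 TPM in Itga6low CD80neg (2.11 ± 0.40, adjusted p = 0.00968; median-of-ratios 0.86, adjusted p = 0.0737). Dnaja4 had 9.83 and 8.74 TPM in Itga6hi CD80pos, against 4.65 and 5.68 TPM in Itga6low CD80neg, and did not pass (adjusted p = 0.0672). The groups did not overlap in these 3 genes, where 73.5% of all genes tested were higher without overlap. The difference between Dnaja2 and Dnaja1 in fold change was not tested. Dnajb1 (Hsp40), a heat-inducible partner of Hsp70, had 199 and 198 TPM in Itga6hi CD80pos, against 38.5 and 118 TPM in Itga6low CD80neg (1.54 ± 0.61, adjusted p = 0.071). Dnajb6, which holds back aggregation, had 78.5 and 92.3 TPM in Itga6hi CD80pos, against 24.0 and 55.6 TPM in Itga6low CD80neg (1.20 ± 0.50, adjusted p = 0.0788). In both, the Itga6low CD80neg replicates were far apart. Dnajb4 had 20.2 and 15.0 TPM in Itga6hi CD80pos, against 19.0 and 17.1 TPM in Itga6low CD80neg, and was called lower only after median-of-ratios or quantile scaling (median-of-ratios -1.25, adjusted p = 0.0478). Dnajb5 had 2.35 and 3.998 TPM in Itga6hi CD80pos, against 3.29 and 5.18 TPM in Itga6low CD80neg (-0.33 ± 0.36, adjusted p = 0.44).

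In the C class, Dnajc2, a ribosome-bound DnaJ protein, had 40.0 and 39.3 TPM in Itga6hi CD80pos, against 4.39 and 8.64 TPM in Itga6low CD80neg (2.50 ± 0.39 SE, adjusted p = 0.00683; median-of-ratios 1.32, adjusted p = 0.0375). Dnajc7, which binds both Hsp70 and Hsp90, had 87.2 and 70.1 TPM in Itga6hi CD80pos, against 17.7 and 33.5 TPM in Itga6low CD80neg (1.64 ± 0.43, adjusted p = 0.0219). Dnajc8, found with the splicing machinery, had 140.0 and 111 TPM in Itga6hi CD80pos, against 27.7 and 63.7 TPM in Itga6low CD80neg (1.54 ± 0.51, adjusted p = 0.0419). These 3 were higher without overlap, as were 73.5% of all genes tested. Dnajc2 alone passed after median-of-ratios scaling, where 10.2% of all genes were called higher. Dnajc5, the cysteine string protein of vesicles, had 37.3 and 45.1 TPM in Itga6hi CD80pos, against 9.10 and 12.1 TPM in Itga6low CD80neg (1.87 ± 0.33, adjusted p = 0.00822). After median-of-ratios scaling the Dnajc5 value was 0.66 and was not called. Dnajc12 had 1.43 and 0.151 TPM in Itga6hi CD80pos, against 0.721 and 1.93 TPM in Itga6low CD80neg, which overlap.

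Ratios of 2 genes inside a library do not depend on the haemoglobin share. With 2 libraries against 2, the smallest exact permutation p is 0.333, two-sided, and each ratio in this paragraph that did not overlap between groups reached that value. The log2 ratio of Hsp90aa1 to Hsp90ab1 was -2.56 and -2.67 in Itga6hi CD80pos, against -1.36 and -0.97 in Itga6low CD80neg, a difference of -1.45. The log2 ratio of Hspa5 to Hspa8 was -3.43 and -3.12 in Itga6hi CD80pos, against -1.06 and -1.72 in Itga6low CD80neg, a difference of -1.88. Thus the stress-inducible Hsp90 and the ER Hsp70 were lower relative to their constant cytosolic relatives in both Itga6hi CD80pos libraries. For Hspd1 to Hspe1 it was -0.53 and -0.55 in Itga6hi CD80pos, against -1.09 and -1.56 in Itga6low CD80neg, a difference of 0.78. For summed Hspa1a and Hspa1b to Hspa8 the log2 ratio was -2.01 and -2.02 in Itga6hi CD80pos, against -2.19 and -2.03 in Itga6low CD80neg, a difference of 0.10. The inducible to constant Hsp70 ratio was thus close in 3 of the 4 libraries and a little lower in Itga6low CD80neg replicate 1. Further ratios were added after the data were seen. The log2 ratio of Hsp90b1 to Hsp90ab1 was -3.83 and -3.19 in Itga6hi CD80pos, against -0.57 and -0.91 in Itga6low CD80neg. For Hspa9 to Hspa5 it was 0.42 and -0.52 in Itga6hi CD80pos, against -2.85 and -2.33 in Itga6low CD80neg, a difference of 2.54. Across compartments, the mitochondrial Hsp70 was thus higher relative to the ER one in both Itga6hi CD80pos libraries. The log2 ratio of Hspa1a to Hspa1b was -1.97 and -1.23 in Itga6hi CD80pos, against -0.17 and -0.40 in Itga6low CD80neg, with the limit on the split of reads given above.

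**Figure D4:**
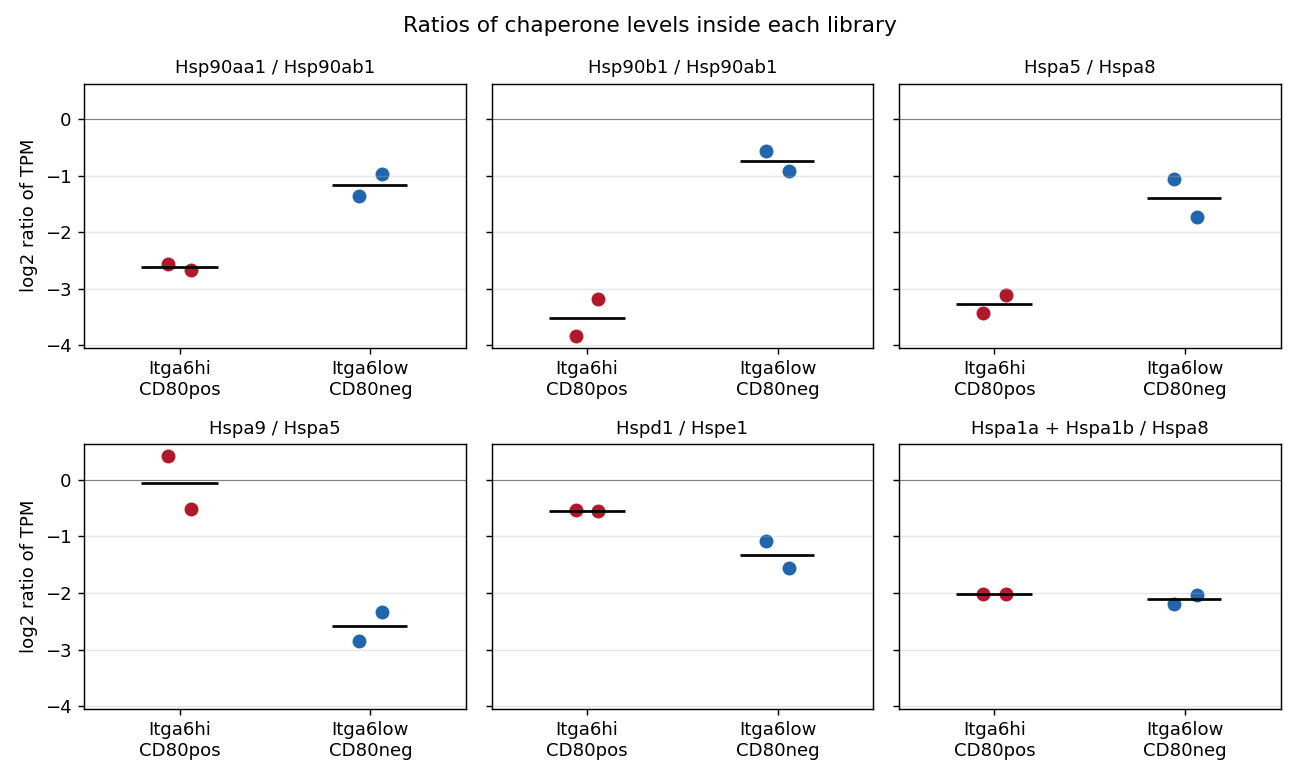
Log2 ratio of TPM between pairs of chaperone genes inside each library, Itga6hi CD80pos on the left of each panel and Itga6low CD80neg on the right; each point is a library and each bar the mean of the pair. Hspa5 to Hspa8 and Hsp90aa1 to Hsp90ab1 are lower in both Itga6hi CD80pos libraries, and the inducible to constant Hsp70 ratio lies near -2.02 in 3 of the 4.

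Genes that work with the members were counted from lists. For comparison, 57.0% of all genes tested were called higher and 9.48% lower, with a median log2 fold change of 1.27. After median-of-ratios scaling 10.2% were higher, and 6.46% were called higher under each of 5 scalings. Of 30 tested co-chaperones of Hsp70 and Hsp90, 26 were called higher and 0 lower, with a median of 2.01, and 7 were called higher under each of 5 scalings. Ppp5c, a phosphatase that binds Hsp90, had 105 and 89.8 TPM in Itga6hi CD80pos, against 8.98 and 10.6 TPM in Itga6low CD80neg (3.19 ± 0.32 SE, adjusted p = 0.00394). Cacybp, which binds the ubiquitin ligase Siah1, had a log2 fold change of 3.11 ± 0.50, and Bag2, an exchange factor of Hsp70, one of 3.09 ± 0.42. Of 14 tested partners of CCT, 12 were called higher and 0 lower, with a median of 1.57, and 0 were called higher after median-of-ratios scaling. The prefoldin subunits Pfdn2 (2.14 ± 0.47), Pfdn1 (2.05 ± 0.52) and Pfdn6 (1.92 ± 0.42), which hand actin and tubulin to CCT, had the highest fold changes called. The heat shock factor list held 4 tested genes, namely Hsf1, Hsf2, Hsf4 and the factor-binding Hsbp1. Of these Hsf1, the main regulator of the cytosolic response, was called higher. It had 32.2 and 26.2 TPM in Itga6hi CD80pos, against 6.65 and 6.96 TPM in Itga6low CD80neg (1.94 ± 0.30, adjusted p = 0.00676), and 0.76 after median-of-ratios scaling (adjusted p = 0.102). A list of other small heat shock and disaggregation genes, which also held the collagen chaperone Serpinh1, had 6 tested. Of these 3 were higher and 2 (Cryab and Serpinh1) lower. Vcp, an unfolding ATPase, was among the higher (2.18 ± 0.39) and was not called after median-of-ratios scaling (0.91). Immediate-early genes, which can be induced while tissue is taken apart, were counted beside the inducible chaperones. Of 15 tested, 1 (Klf6) was called higher and 0 lower, with a median of 0.81, and 0 were called in either direction after median-of-ratios scaling.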

How the data were processed

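Per the labels' protocols, polyA RNA of mouse skin carcinoma cells was taken up with Zymo's Quick-RNA Microprep, and NEBNext Single Cell/Low Input chemistry gave the libraries. The deposited values are TPM per gene, which the authors made with kallisto 0.44.0 and the build mm10, per the submitters' processing notes; the annotation and any filter are not given in the sources used here. TPM keep no depth, so no interval or limit that needs counts is given. Columns were matched to samples by name; the Itga6hi CD80neg group was not analysed here.

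Genes reaching 1 TPM in 2 or more of the 4 libraries were compared on log2(TPM + 1), which understates changes of low genes, with limma 3.58.1 in R 4.3.3 (eBayes with trend, two-sided, Benjamini-Hochberg adjustment over 13474 genes, adjusted p under 0.05). The fit had 2 residual and 3.33 prior degrees of freedom. Ratios were tested by exact permutation. The script was tested on simulated data with known changes. The other settings were pseudocounts of 0.1 and 5, no filter, a mean of at least 5 TPM, 4 other scalings, a replicate block and each library left out. The calls under all 5 scalings and the joined settings were chosen after seeing the data.

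Compartments and classes were assigned from textbook knowledge. The members, gene lists, markers and settings were chosen with earlier results of these data known. Values are given for each tested Hsp90, Hsp70, Hsp110, small heat shock and chaperonin gene, for the DnaJ genes of each class with the highest mean or the highest or lowest fold change, and for the called genes of each partner list with the largest changes. Promoter windows are RefSeq's on GRCm38.p6. Protein sequences were not used here.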

Additional observations from a re-analysis of the deposited data

How the results depend on the processing

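The count of members called higher, 41 on deposited TPM, was 26 with no filter on low values, 8 with median-of-ratios scaling, 14 with quantile normalization, 16 on a total without haemoglobin genes and 19 on one without mitochondrial, ribosomal protein, haemoglobin and keratin genes. It was 42 and 44 with pseudocounts of 0.1 and 5, and 38 with a mean of at least 5 TPM. The count called lower, 2, was 1 with no filter and 1 with the mean of at least 5 TPM, which tests fewer genes, and 4 with median-of-ratios scaling, 4 with quantile normalization and 4 without haemoglobin genes. With each library left out in turn the counts ran from 0 to 48 higher and 0 to 2 lower. With median-of-ratios scaling as well, they ran from 0 to 25 higher (0 without either Itga6hi CD80pos library, 10 and 25 without replicate 1 and 2 of Itga6low CD80neg) and 0 to 8 lower (0, 0, 5 and 8). The difference in the members' share of TPM, 0.890 percentage points, was 0.473 on a total without haemoglobin genes. Dnajc4 reversed to -0.057 with quantile normalization and -0.049 without haemoglobin genes, and Hsp90aa1 to -0.044 without haemoglobin genes; the cause was not tested. A further 14 to 19 members called in neither setting changed sign under the scalings. With the replicate number as a replicate block the counts were 42 higher and 2 lower. Under this block Hspa8 (adjusted p = 0.0639) and Hsp90aa1 (adjusted p = 0.102) were not called, so the Hsp90 count was 1 in place of 2 and the Hsp70 count 3 in place of 4, while Dnajb1, Dnajc18 and Hspb11 were called higher. The labels do not say that a number marks a shared animal or batch, and deviations of same-numbered libraries correlated at 0.109 across genes, so the number was not taken as a pairing. Depth is unknown for TPM, and 2 libraries a group limit what could be detected. With 1 left out of Itga6hi CD80pos, few genes of any kind were called. With 1 left out of Itga6low CD80neg, calls over all genes stayed near those with 4 libraries, and those of higher genes rose without its replicate 2.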
